A study of Mus musculus with 9 samples.

Results

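The genes that decide what becomes of choline were followed through 9 mouse liver RNA libraries: 3 enzymes that oxidise choline (Chdh, Dmgdh and Sardh), 5 kinases and cytidylyl transferases of the CDP-choline and CDP-ethanolamine routes (Chka, Chkb, Pcyt1a, Pcyt1b and Pcyt2), the methyltransferase Pemt and the transporter Slc44a1. They were taken by name as the genes of these routes, and all 10 of 10 were found among the 16521 genes of the deposited tables. The livers came from C57BL/6 mice in 3 groups of 3 samples. The SAR group received a methionine-choline-deficient (MCD) diet, which induced fatty liver, together with a high dose of sarsasapogenin (SAR), a steroidal sapogenin from plants; the dose itself is not stated. The model group received the MCD diet, and the normal group, labelled wild type, was given saline. The labels give no transgene, age, sex or duration. Nothing in them ties each sample of a group to a mouse of its own, so the p-values reflect sample-to-sample spread that may be technical.

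Choline has competing fates in the liver. Mitochondria oxidise it to betaine, which hands a methyl group to homocysteine, and the remaining dimethylglycine and sarcosine pass further carbon units to folate. The CDP-choline route instead phosphorylates choline and builds it into phosphatidylcholine, the main phospholipid of membranes and secreted lipoproteins, whereas PEMT makes phosphatidylcholine by methylating phosphatidylethanolamine with S-adenosylmethionine made from methionine. The diet withholds choline and methionine together, the nutrients from which these routes start.

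Reads per library were recovered from the deposited group means, and since those means carry no replicate number, a letter (a, b or c) names each library of a group in order of falling size factor. Values are reads divided by size factors on 1 scale for the 9 libraries, here called normalised reads, and log2 fold changes, standard errors (SE) and adjusted p-values come from limma fits of 2 groups at a time, with a threshold of 0.05. Recovered reads numbered between 6309138 and 14939063 per library. They made up 53.0% of the summed means in SAR, 100% in model and 47.6% in normal livers, so they do not compare depth between groups. Library c stood apart in the model and normal groups: over 12269 genes its log2 values correlated with those of libraries a and b at r between 0.926 and 0.939 in the model group and between 0.924 and 0.933 in the normal group, against 0.980 and 0.976 between a and b. For 7 of the 8 choline genes tested, model library c was the model library nearest to the normal mean (87.5%), as it was for 58.2% of 12529 genes tested and for 73.3% of 4901 genes called. Calls of the 10 genes that turn on it are given with and without it. The hepatocyte factor Hnf4a had 10206 to 12248 normalised reads in SAR, 4160 to 5202 in model and 11815 to 12803 in normal livers, and muscle markers summed to 14.4 or less in every library.

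The 3 oxidation enzymes were all lower in model than in normal livers, and 2 of them, Sardh and Dmgdh, were higher in SAR than in model livers. In whole liver, fewer cells of a type and less RNA per cell cannot be told apart. Of the choline-phosphorylating and cytidylyl-transferring genes tested in model against normal livers, Chka was higher, Pcyt1a was lower and Pcyt2 did not pass. Pemt and the transporter Slc44a1 passed in no comparison, and 0 of 8 genes tested passed between SAR and normal livers by limma, where 3.54% of 11592 genes did (1.72% higher and 1.82% lower); 2 of the 8, Chdh and Pcyt1a, had an unadjusted p under 0.05. Altogether 4 of 8 genes tested were lower and 1 was higher in model than in normal livers, where 39.1% of all 12533 genes tested were called (19.1% lower and 20.0% higher). In SAR against model livers 2 of 9 were higher and 0 lower, where 29.4% of 12468 genes were called (13.2% higher and 16.2% lower). The 2 of 9 is a smaller share than the background and is no result about these genes as a group. By the authors' deposited DESeq test, which called 23.5% of 16374 genes in model against normal and 16.5% of 16294 in SAR against model, Pcyt1b was higher and 4 of the 10 genes were lower in model than in normal livers, and Sardh was higher in SAR than in model livers. The median log2 fold change of the genes tested was 0.42 in SAR against model livers and -0.62 in model against normal livers, beside 0.01 and 0.03 over all genes. Both comparisons use the same 3 model libraries, once as the group compared and once as its control, so an extreme model library moves them in opposite directions.

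**Figure D1:**
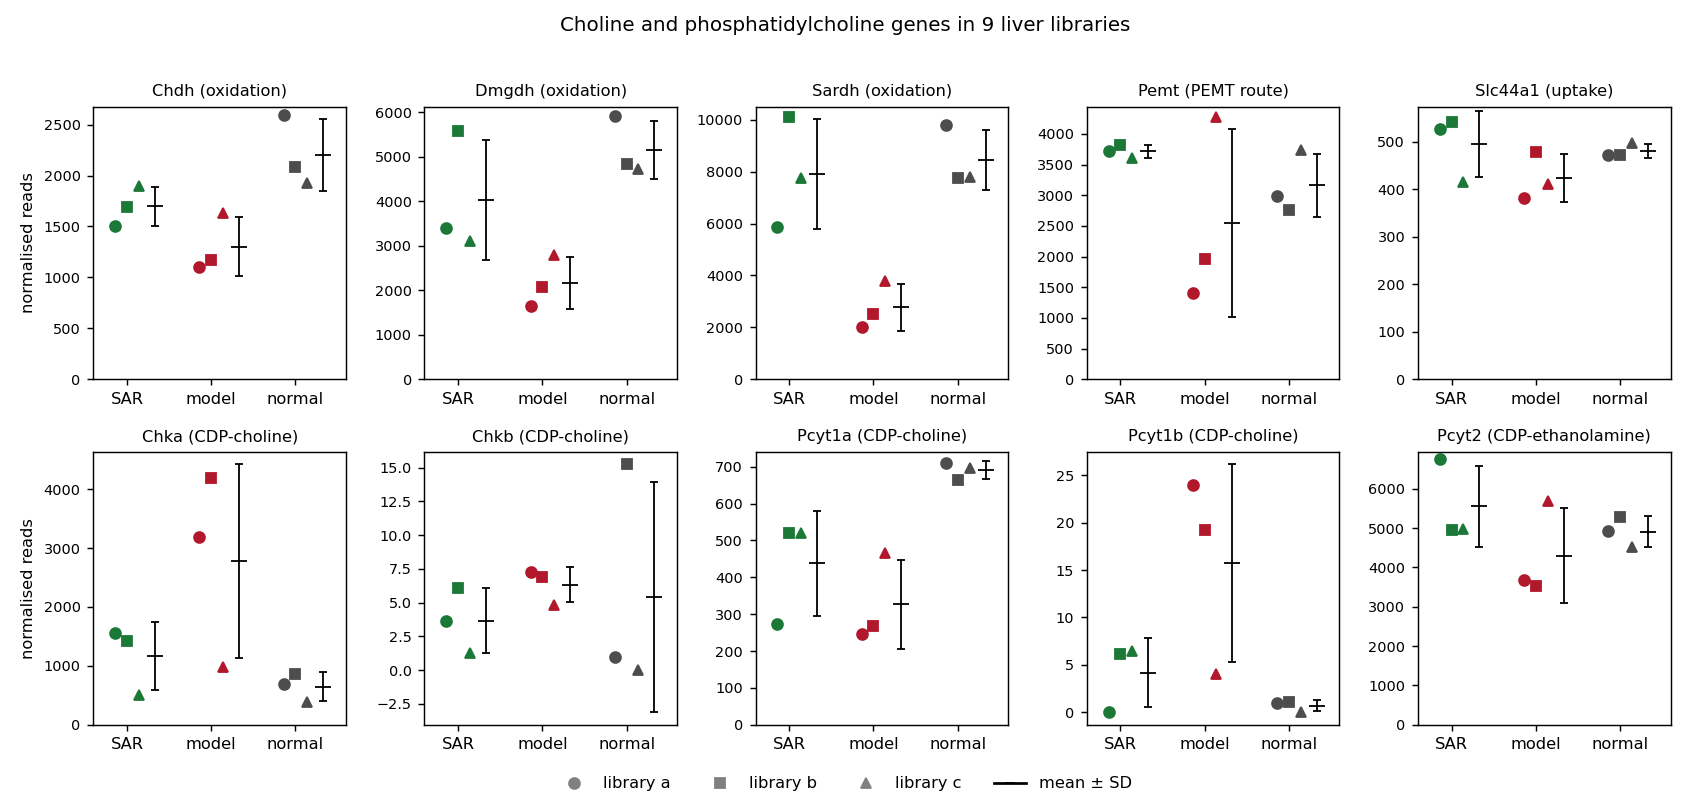
Normalised reads of the 10 genes in each of the 9 libraries (y axis, 1 panel per gene) by group (x axis), with symbols for libraries a, b and c and the mean ± SD of 3 libraries beside them. Sardh sits at 2026 to 3772 in the model libraries, below every SAR and normal library, while Chka reaches 3196 and 4183 in model libraries a and b but 973 in model library c.

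Choline dehydrogenase, Chdh, makes the first oxidation step, from choline to betaine aldehyde in the mitochondrion. It had 1507, 1695 and 1893 normalised reads in SAR libraries a, b and c, against 1106, 1169 and 1632 in model libraries. The normal libraries held 2599, 2088 and 1922. Every model library thus lay below every normal library, whereas model library c lay inside the SAR range. Chdh was lower in model than in normal livers by limma (log2 fold change -0.77, SE 0.21, adjusted p = 0.0222, 3 of 3 libraries below the normal range). This call was lost without model library a, model library b, normal library a or normal library b, with adjusted p between 0.0565 and 0.0916. SAR against model did not pass (log2 fold change 0.42, SE 0.19, adjusted p = 0.127 by limma), and it passed without model library c (0.59, adjusted p = 0.0147). Part of its annotated exon sequence, 9.47%, overlaps exons of Cacna1d on the opposite strand, and no strand setting is stated, so some of its reads could belong to that gene.

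Dimethylglycine dehydrogenase, Dmgdh, removes the first of the remaining methyl groups, turning dimethylglycine into sarcosine. Its 3397, 5582 and 3105 normalised reads in SAR libraries a, b and c all exceeded the 1644, 2070 and 2796 of the model libraries. Normal libraries held 5910.2, 4829 and 4715, so the model range also lay below the normal range, and SAR library b lay inside the normal range while SAR libraries a and c lay below it. Dmgdh was lower in model than in normal livers by limma (log2 fold change -1.27, SE 0.24, adjusted p = 0.00684), a call that held without any single library (adjusted p at most 0.0376). It was higher in SAR than in model livers (0.90, SE 0.28, adjusted p = 0.0401 by limma). Leaving out any single library except model c ended this call, with adjusted p between 0.0561 and 0.138. In the authors' deposited test Dmgdh did not pass the threshold for SAR against model (DESeq adjusted p = 0.113).

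Sarcosine dehydrogenase, Sardh, takes the last methyl group and leaves glycine, and all its model values lay below all others. SAR libraries a, b and c had 5867, 10107 and 7777 normalised reads, against 2026, 2528 and 3772 in model libraries. Normal libraries had 9804, 7773 and 7817. The SAR and normal ranges overlapped. Sardh was higher in SAR than in model livers by limma (log2 fold change 1.54, SE 0.29, adjusted p = 0.00652) and lower in model than in normal livers (-1.65, SE 0.28, adjusted p = 0.00482). Both calls held without any single library, with adjusted p at most 0.0355 and 0.0315. The authors' deposited table also lists Sardh under the threshold in both comparisons, with DESeq adjusted p of 9.64e-04 for SAR against model and 7.00e-09 for model against normal.

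Between SAR and normal livers none of the 3 oxidation enzymes passed. The log2 fold changes were -0.37 for Chdh (SE 0.16, adjusted p = 0.189), -0.40 for Dmgdh (SE 0.24, adjusted p = 0.321) and -0.12 for Sardh (SE 0.24, adjusted p = 0.772) by limma. The highest SAR value of Chdh, 1893, lay just under the lowest normal value, 1922. Taken as mean ± SD over 3 libraries, Sardh averaged 7917 ± 2123 normalised reads in SAR, 2775 ± 899 in model and 8465 ± 1160 in normal livers, while Chdh averaged 1698 ± 193 in SAR, 1302 ± 287 in model and 2203 ± 353 in normal livers.

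The oxidation enzymes also changed relative to each other, a description chosen after the values were seen. On the log2(value + 1) scale the difference of Sardh minus Chdh within a library was 1.96, 2.58 and 2.04 in SAR libraries a, b and c, and 0.87, 1.11 and 1.21 in model libraries. It was 1.92, 1.90 and 2.02 in normal libraries. The SAR and normal differences overlapped, and all model differences lay below them, so within each model library Sardh stood lower relative to Chdh. Unlike the levels, such a difference does not depend on the size factor of the library.

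**Figure D2:**
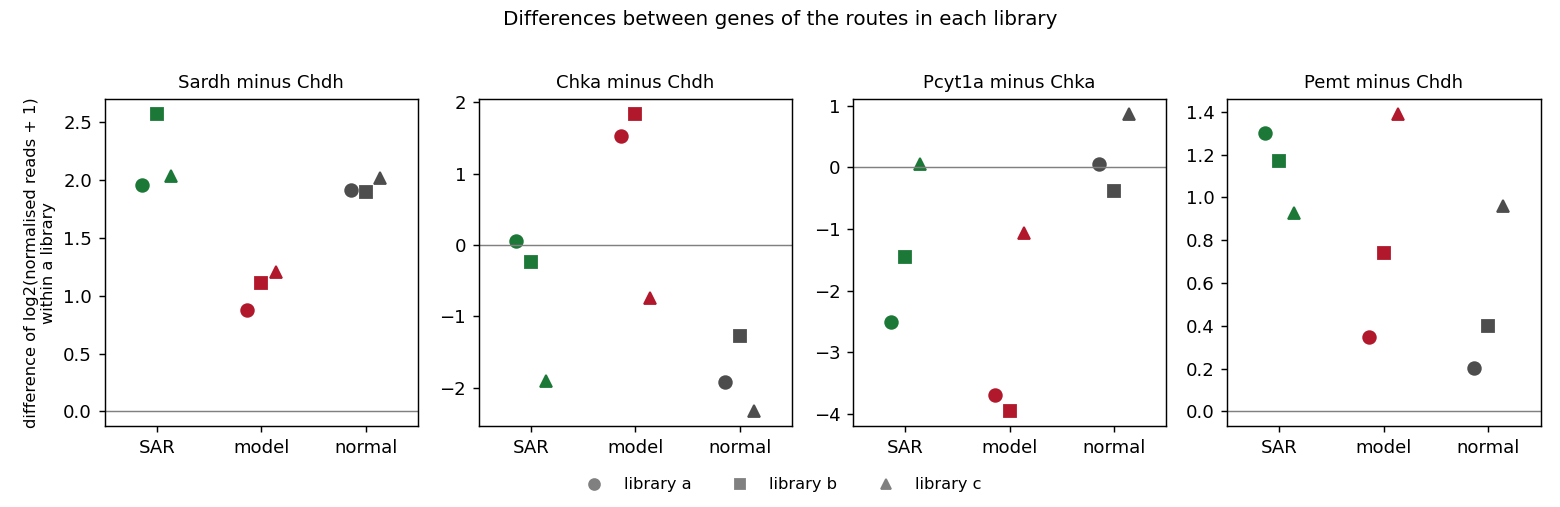
Difference of log2(normalised reads + 1) between 2 genes of the same library (y axis) by group (x axis), 1 point per library. Sardh minus Chdh lies between 0.87 and 1.21 in model libraries and between 1.90 and 2.58 in the others, and Chka minus Chdh is above 0 in model libraries a and b and at -0.75 in model library c.

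The start of Dmgdh faces that of Bhmt2, which encodes a betaine-homocysteine methyltransferase relative that methylates homocysteine from S-methylmethionine. The genes run in opposite directions, and the annotated starts leave only 130 bases between them, so these bases lie upstream of both. They are shown because both genes were lower in model livers. The stretch is on GRCm38.p6, chr13:93674303-93674432, plus strand, the strand of Dmgdh, from the RefSeq promoter table, with matches to the motifs searched in capitals.
Dmgdh and Bhmt2: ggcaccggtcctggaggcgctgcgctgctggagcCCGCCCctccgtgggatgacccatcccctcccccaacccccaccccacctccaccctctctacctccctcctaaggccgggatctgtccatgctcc
The motifs searched, on either strand, were the E-box CACGTG, the HNF4 motif CAAAGTCCA, the AP-1 motif TGANTCA, the TATA box read as TATAAA, the CCAAT box and the GC box GGGCGG. This stretch holds 1 match, a GC box read as CCGCCC, 96 to 91 bases before the start of Dmgdh. A GC box is found in 27.3% of 32851 promoters over the same length. Bhmt2 had 2177, 2852 and 2190.5 normalised reads in SAR libraries a, b and c, against 1183, 1412 and 2314 in model libraries. The normal libraries held 4681, 4526 and 4299. Bhmt2 was lower in model than in normal livers by limma (log2 fold change -1.52, SE 0.26, adjusted p = 0.00501), a call held without any single library. SAR against model did not pass (0.62, SE 0.25, adjusted p = 0.0941) but passed without model library c (0.90, adjusted p = 0.00341). SAR was lower than normal (-0.91, SE 0.16, adjusted p = 0.0326), a call that ended when any one library except normal c was left out (adjusted p up to 0.113).

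Choline kinase alpha, Chka, traps choline as phosphocholine at the entry of the CDP-choline route. Its normalised reads in SAR libraries a, b and c were 1559, 1428 and 503, and those in model libraries were 3196, 4183 and 973. Normal libraries had 686, 864 and 380.4. Every model library lay above every normal library, but library c was the lowest of each group, and model library c fell inside the SAR range. Chka was higher in model than in normal livers by limma (log2 fold change 1.95, SE 0.54, adjusted p = 0.0257). The call was lost without model library a or b or normal library a or c (adjusted p between 0.0551 and 0.0977), and the authors' deposited table gives a DESeq adjusted p of 0.0590. SAR against model did not pass (-1.16, SE 0.57, adjusted p = 0.156 by limma), and without model library c Chka was lower in SAR livers (-1.80, adjusted p = 0.00595). SAR against normal did not pass either (0.77, SE 0.45, adjusted p = 0.308).

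The 250 bases before the RefSeq start of Chka, the one gene of the 8 tested that limma called higher in model than in normal livers, are shown on GRCm38.p6, chr19:3851523-3851772, plus strand, with the same motifs in capitals.
Chka: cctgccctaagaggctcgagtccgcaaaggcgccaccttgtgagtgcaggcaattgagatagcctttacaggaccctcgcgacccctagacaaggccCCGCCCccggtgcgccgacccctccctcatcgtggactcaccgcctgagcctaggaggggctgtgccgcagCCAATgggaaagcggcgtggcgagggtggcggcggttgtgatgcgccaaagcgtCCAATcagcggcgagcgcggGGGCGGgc
This window holds 2 CCAAT boxes, 82 to 78 and 28 to 24 bases before the start, and 2 GC boxes, 153 to 148 and 8 to 3 bases before it. Over 250 bases, CCAAT is found in 33.8% of the promoters and the GC box in 32.7%.

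Choline kinase beta, Chkb, was almost absent from these libraries. It had 3, 5 and 1 reads in SAR libraries a, b and c, 10, 9 and 6 in model libraries, and 1, 14 and 0 in normal libraries, under the mean value of 10 needed for a test. Of its exon bases 50.7% are shared with Gm44502, a read-through gene on the same strand, so its level is uncertain.

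Pcyt1a encodes the rate-limiting step of the CDP-choline route, the cytidylyl transferase that turns phosphocholine into CDP-choline. SAR libraries a, b and c had 273, 519 and 521 normalised reads, and model libraries had 247, 268 and 466. Normal libraries stood close together at 709.97, 663 and 697. All SAR and all model libraries lay below all normal libraries, and SAR and model overlapped. Pcyt1a was lower in model than in normal livers by limma (log2 fold change -1.14, SE 0.24, adjusted p = 0.00972) and remained so without any single library (adjusted p at most 0.0444). SAR against normal did not pass (-0.72, SE 0.24, adjusted p = 0.118, unadjusted p = 0.0186), and neither did SAR against model (0.44, SE 0.31, adjusted p = 0.306). Its neighbour on the opposite strand, Slc51a, overlaps 7.65% of its exon bases.

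Consecutive enzymes of 1 route therefore lay on opposite sides of normal in model livers. As a description, Pcyt1a minus Chka within a library was -2.51, -1.46 and 0.05 log2 units in SAR libraries a, b and c and -3.69, -3.96 and -1.06 in model libraries. In normal libraries it was 0.05, -0.38 and 0.87. All model differences lay below all normal ones, while the SAR differences overlapped with each.

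Pcyt1b encodes a second cytidylyl transferase with little expression in adult liver. It had 0, 5 and 5 reads in SAR libraries a, b and c and 33, 25 and 5 in model libraries, against 1, 1 and 0 in normal libraries. Summed over each group, 63 reads in model against 2 in normal livers gave a ratio of 22.9 per unit of depth (exact 95% interval 6.08 to 193, counting error only). The 10 reads in SAR against 63 in model livers gave 0.257 (0.118 to 0.504). Pcyt1b was under the filter in model against normal livers. With no filter limma gave a log2 fold change of 3.17 (SE 0.74, adjusted p = 0.0152), and the authors' deposited table gives a DESeq adjusted p of 0.0137. In SAR against model livers it passed the filter and not the test (-1.85, SE 1.04, adjusted p = 0.206).

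Pcyt2, the cytidylyl transferase of the parallel CDP-ethanolamine route, makes the precursor of the phosphatidylethanolamine that PEMT methylates. Its levels were 6753, 4962 and 4969.6 normalised reads in SAR libraries a, b and c, 3689, 3538 and 5685 in model libraries and 4921, 5293 and 4518 in normal libraries. The groups overlapped in every pair. Neither SAR against model (log2 fold change 0.41, SE 0.25, adjusted p = 0.243) nor model against normal (-0.22, SE 0.25, adjusted p = 0.493) passed by limma. Without model library c, Pcyt2 was higher in SAR than in model livers (0.62, adjusted p = 0.0301).

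The product of Pemt methylates phosphatidylethanolamine stepwise to phosphatidylcholine and is largely a liver enzyme. Of the 10 genes, Pemt alone gained a call in both comparisons with model livers when model library c was left out. SAR libraries a, b and c agreed within a narrow range, at 3721, 3814 and 3606 normalised reads. Model libraries had 1406, 1954 and 4283, and normal libraries had 2993, 2758 and 3739. Model libraries a and b lay below every other library, and model library c was the highest of the 9. With all libraries Pemt did not pass for SAR against model (log2 fold change 0.73, SE 0.35, adjusted p = 0.151 by limma) or for model against normal (-0.46, SE 0.39, adjusted p = 0.363). Without model library c, Pemt was higher in SAR than in model livers (1.18, adjusted p = 8.78e-04) and lower in model than in normal livers (-0.92, adjusted p = 0.0125). SAR against normal gave 0.24 (SE 0.16, adjusted p = 0.351).

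Slc44a1, a choline transporter of the plasma membrane and mitochondria, differed little between the groups. It had 527, 542 and 415 normalised reads in SAR libraries a, b and c, 381, 478 and 411 in model libraries and 471, 471 and 496 in normal libraries. The log2 fold changes were 0.24 for SAR against model (SE 0.17, adjusted p = 0.298), -0.18 for model against normal (SE 0.13, adjusted p = 0.301) and 0.04 for SAR against normal (SE 0.14, adjusted p = 0.895) by limma. With libraries scaled to equal totals, the first became -0.14 and the second 0.19, so no direction can be given.

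**Figure D3:**
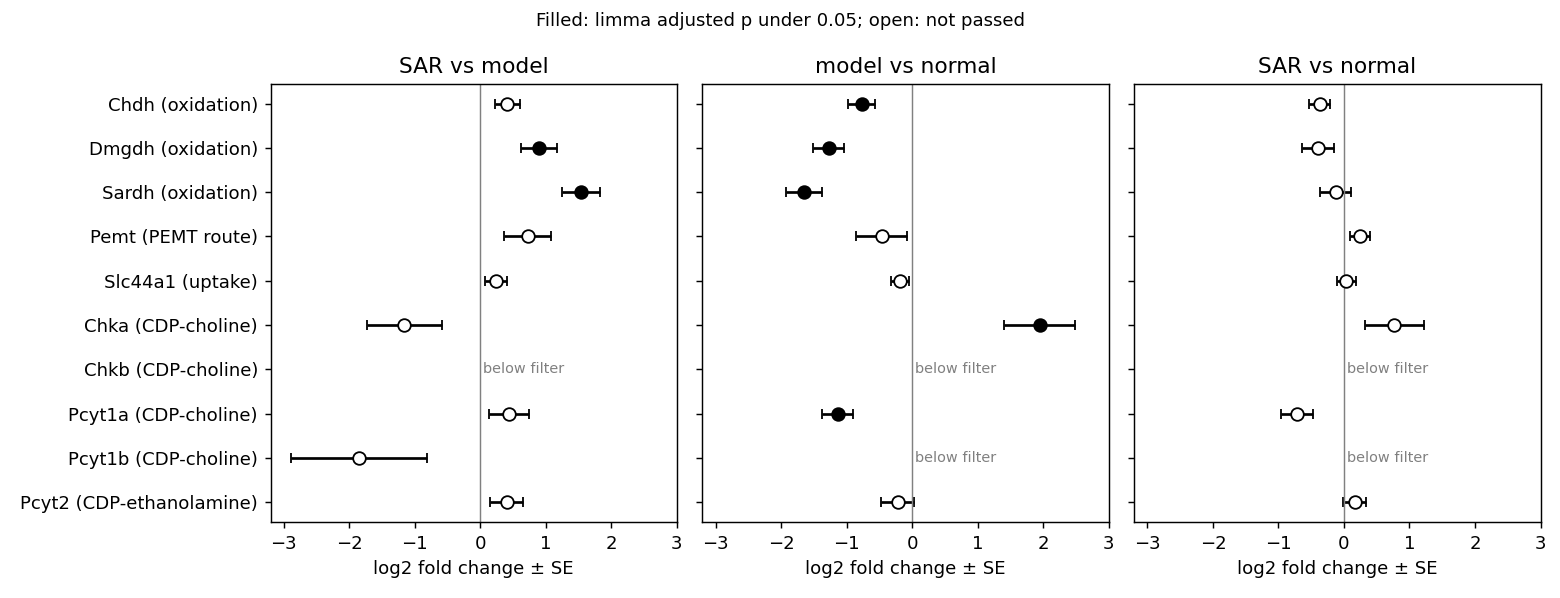
Log2 fold change with its SE (x axis, limma) of each of the 10 genes (y axis) in SAR against model, model against normal and SAR against normal livers, 3 libraries a group. Filled points passed the threshold: Dmgdh and Sardh at 0.90 and 1.54 in SAR against model, and Chdh, Dmgdh, Sardh, Pcyt1a and Chka at -0.77, -1.27, -1.65, -1.14 and 1.95 in model against normal.

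Per kilobase of annotated exon sequence, the order of the levels differed between groups. SAR livers had Pemt highest with 1765 ± 49.6 normalised reads per kilobase, then Sardh with 1458 ± 391, Pcyt2 with 1280 ± 238 and Dmgdh with 1180 ± 396 (SD, n = 3). In model livers Pemt led with 1211 ± 726, then came Pcyt2 with 990.4 ± 276, Dmgdh with 636 ± 171 and Sardh with 511 ± 165. Without model library c, Pemt averaged 798 and stood below Pcyt2 with 831. Normal livers had Sardh at 1558 ± 214, Dmgdh at 1509 ± 193, Pemt at 1503 ± 244 and Pcyt2 at 1130 ± 89.2. Neighbours in these orders differed by less than the larger of their SDs, except Dmgdh under Pcyt2 in model livers and Pcyt2 under Pemt in normal livers. Chdh, Slc44a1, Chka and Pcyt1a stood lower in every group, between 44.1 (Pcyt1a, model) and 354 (Chdh, normal). Chka had 96.8 ± 47.9 normalised reads per kilobase in SAR, 232 ± 137 in model and 53.5 ± 20.4 in normal livers. Pcyt1a had 59.1 ± 19.2 in SAR, 44.1 ± 16.4 in model and 93.1 ± 3.28 in normal livers, so that its mean stood above that of Chka in normal livers and below it in the others. In SAR library c the order was the other way, with 70.3 for Pcyt1a and 41.9 for Chka.

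Genes with other roles in these routes were taken from 7 lists of 46 genes, of which 44 were in the tables. The lists were chosen with earlier results of these data known, so their counts are a description. In SAR against model livers 10 of 40 tested were higher and 6 lower, and in model against normal livers 7 of 39 were higher and 14 lower, beside the backgrounds given above. In SAR against normal livers 1 of 38, Bhmt2, was lower. The median log2 fold change of the listed genes was 0.42 in SAR against model and -0.46 in model against normal livers.

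The list of last steps of the CDP routes also holds the ethanolamine kinases and Etnppl. It had the most genes lower in model than in normal livers, 5 of 6, all but Cept1, which completes both routes. In SAR against model livers 4 of 6 were higher. Over all genes tested, 19.1% were lower in model than in normal livers and 13.2% higher in SAR than in model livers. Chpt1, the cholinephosphotransferase that joins CDP-choline to diacylglycerol, had 2763, 3901 and 3832 normalised reads in SAR libraries a, b and c, against 798, 878 and 1353 in model libraries, and normal libraries held 4001, 3402 and 2737. No model library reached the SAR or normal range. Chpt1 was higher in SAR than in model livers by limma (log2 fold change 1.83, SE 0.24, adjusted p = 0.00153) and lower in model than in normal livers (-1.77, SE 0.24, adjusted p = 0.00264), and both held without any single library. Cept1, which completes both CDP routes, was higher in SAR than in model livers by a small amount (0.49, SE 0.16, adjusted p = 0.0493), a call that ended when any one library except model c was left out. Selenoi, the ethanolamine phosphotransferase, was higher in SAR than in model livers (0.69, adjusted p = 0.00990) and lower in model than in normal livers (-0.87, adjusted p = 0.0382). The ethanolamine kinases Etnk1 (-0.77, adjusted p = 0.00807) and Etnk2 (-1.66, adjusted p = 0.0405) were lower in model than in normal livers, Etnk2 with overlapping groups since model library c had 5242 normalised reads beside 1213 and 1505 in a and b. Etnppl, which breaks down phosphoethanolamine, was higher in SAR than in model (1.85, adjusted p = 0.00844) and lower in model than in normal livers (-1.56, adjusted p = 0.0377). Its model and normal groups overlapped, with 1113 normalised reads in model library b and 1062 in normal library c.

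The list of betaine and methyl-group use counts Bhmt2, which does not use betaine, whereas Bhmt was not tested by limma. In this list 3 of 4 tested were higher in SAR than in model livers. In model against normal livers 3 of 3 tested were lower. The same shares over all genes tested were 13.2% and 19.1%. Aldh7a1, which oxidises betaine aldehyde to betaine, had 5175, 7607 and 6117 normalised reads in SAR libraries a, b and c, 2019, 2454 and 2397 in model libraries and 6081, 5350 and 4667 in normal libraries. It was higher in SAR than in model livers by limma (log2 fold change 1.47, SE 0.21, adjusted p = 0.00222) and lower in model than in normal livers (-1.23, SE 0.19, adjusted p = 0.00394). Pipox, a peroxisomal oxidase of sarcosine and pipecolate, followed with 1.70 (SE 0.18, adjusted p = 7.83e-04) and -1.19 (SE 0.15, adjusted p = 0.00203). These 4 calls held without any single library. Gnmt, the methyltransferase that makes sarcosine from glycine, was higher in SAR than in model livers (1.74, SE 0.46, adjusted p = 0.0231), although SAR library a, with 5309, lay under model library c, with 5323, and the call ended when SAR library b, SAR library c, model library a or model library b was left out. Bhmt, which remethylates homocysteine with betaine, could not be split into libraries in the SAR and normal groups. The authors' deposited table lists it at a fold of 1.51 for SAR against model (DESeq adjusted p = 0.652) and 0.310 for model against normal (adjusted p = 1.29e-09).

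Supply of the PEMT methyl donor was read mainly from the authors' deposited table, since its most abundant genes were not split into libraries in the SAR and normal groups. Mat1a, the liver methionine adenosyltransferase, is listed there at a mean of 54153 in SAR and 30119 in model livers (fold 1.80, DESeq adjusted p = 0.394), and in the other table at 32928 in model and 210281 in normal livers (fold 0.157, adjusted p = 1.31e-05). The model libraries, which were split, held 14155, 18850.0 and 56635 normalised reads of Mat1a in a, b and c, and without library c the folds became 3.24 for SAR against model and 0.0863 for model against normal. Ahcy, which clears the methylation product S-adenosylhomocysteine, is listed at a fold of 3.21 for SAR against model (adjusted p = 0.0167) and 0.211 for model against normal (adjusted p = 9.15e-16). Its model libraries held 5322, 6377 and 15356, and without library c the folds became 4.92 and 0.136 in these comparisons. Its relative Ahcyl1 was higher in SAR than in model (log2 fold change 0.64, limma adjusted p = 0.0186) and lower in model than in normal livers (-0.79, adjusted p = 0.00727). The other genes of this list that limma tested, Mat2a and Mat2b, passed in neither comparison. Mat2a averaged 1374 normalised reads in SAR, 1581 in model and 1277 in normal livers, and Mat2b 402, 387 and 512. Of the phosphatidylserine genes Ptdss1, Ptdss2 and Pisd, none of 3 passed in either comparison, with log2 fold changes of 0.07 to 0.70 for SAR against model and -0.68 to -0.04 for model against normal. Ptdss1 passed in both without model library c (1.04, adjusted p = 0.00108, and -1.02, adjusted p = 0.00206).

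Choline transport was the list with most genes higher in model than in normal livers, 4 of 6 tested, with 1 lower. Over all genes tested 20.0% were higher and 19.1% lower. Slc44a2, a choline transporter of plasma membrane and mitochondria, had 160.1, 89.1 and 136 normalised reads in SAR libraries a, b and c, 407, 375 and 281 in model libraries and 116, 136 and 122 in normal libraries. It was lower in SAR than in model livers (log2 fold change -1.46, SE 0.25, adjusted p = 0.00427 by limma) and higher in model than in normal livers (1.48, SE 0.18, adjusted p = 0.00192), without overlap, and the SAR and normal ranges overlapped. Its relatives Slc44a3 (1.74, adjusted p = 0.00613) and Slc44a4 (2.23, adjusted p = 0.0410) were higher in model than in normal livers, Slc44a4 from few reads and lost without normal library a or b. Flvcr1, a choline importer, was lower in SAR than in model (-0.98, adjusted p = 0.0158) and higher in model than in normal livers (0.89, adjusted p = 0.00968), while Flvcr2 was lower in model than in normal livers (-0.96, adjusted p = 0.0250).

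Genes that break down, remodel and move phosphatidylcholine were called in both directions. Gpcpd1, a glycerophosphocholine phosphodiesterase, had 857, 1321 and 2475 normalised reads in SAR libraries a, b and c, 465, 406 and 1823 in model libraries and 3484, 3647 and 4819 in normal libraries. Model and SAR overlapped, and both lay under every normal library. It was lower in model than in normal livers by limma (log2 fold change -2.49, SE 0.53, adjusted p = 0.00990), held without any single library, and SAR against normal did not pass (-1.48, SE 0.35, adjusted p = 0.0556). The phospholipase D gene Pld2 was lower in SAR than in model (-1.11, adjusted p = 0.0139) and higher in model than in normal livers (1.69, adjusted p = 0.00358). The lysophospholipid acyltransferase genes Lpcat1, Lpcat2 and Lpcat4 were lower in SAR than in model livers (-1.34, -1.12 and -1.78), and Lpcat2 and Lpcat4 were higher in model than in normal livers (1.41 and 2.79). Lpcat4 remained at few reads, with 16.8 to 21.7 normalised reads in SAR, 41.0 to 103 in model and 5.81 to 13.3 in normal libraries. The carrier gene Stard7 was higher in SAR than in model (0.68, adjusted p = 0.0374) and lower in model than in normal livers (-1.06, adjusted p = 0.00882), and Lypla1 followed with 0.86 (adjusted p = 0.0227) and -0.73 (adjusted p = 0.0421). Pctp was lower in model than in normal livers (-1.71, adjusted p = 0.0241). Abcb4, the canalicular phosphatidylcholine exporter, passed in neither, with 0.40 for SAR against model (adjusted p = 0.171) and -0.58 for model against normal (adjusted p = 0.136). It passed for SAR against model without model library c (0.50, adjusted p = 0.0480) and for model against normal without normal library c (-0.85, adjusted p = 0.0328).

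Many of these results rested on single libraries. Without model library c, 13 of the 24 listed genes that had not passed in SAR against model livers passed (among them Slc44a4, Etnk2, Bhmt2, Ptdss1, Pla2g6, Gpcpd1, Gde1, Pld1, Lpcat3, Pctp, Stard10 and Abcb4), and 5 of 18 in model against normal livers (among them Cept1, Ptdss1, Gde1 and Stard10). Of the 16 calls among the listed genes in SAR against model livers, 11 were lost when some library was left out, and all 11 without model library b (highest adjusted p between 0.0521 and 0.166). They were those of Cept1, Selenoi, Gnmt, Ahcyl1, Flvcr1, Pld2, Lypla1, Stard7, Lpcat1, Lpcat2 and Lpcat4. Of the 21 calls in model against normal livers 8 were lost in this way, all 8 without normal library a and also without normal library b (highest adjusted p between 0.0896 and 0.139). They were those of Selenoi, Etnk2, Etnppl, Slc44a4, Flvcr2, Lypla1, Lpcat2 and Pctp.

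**Figure D4:**
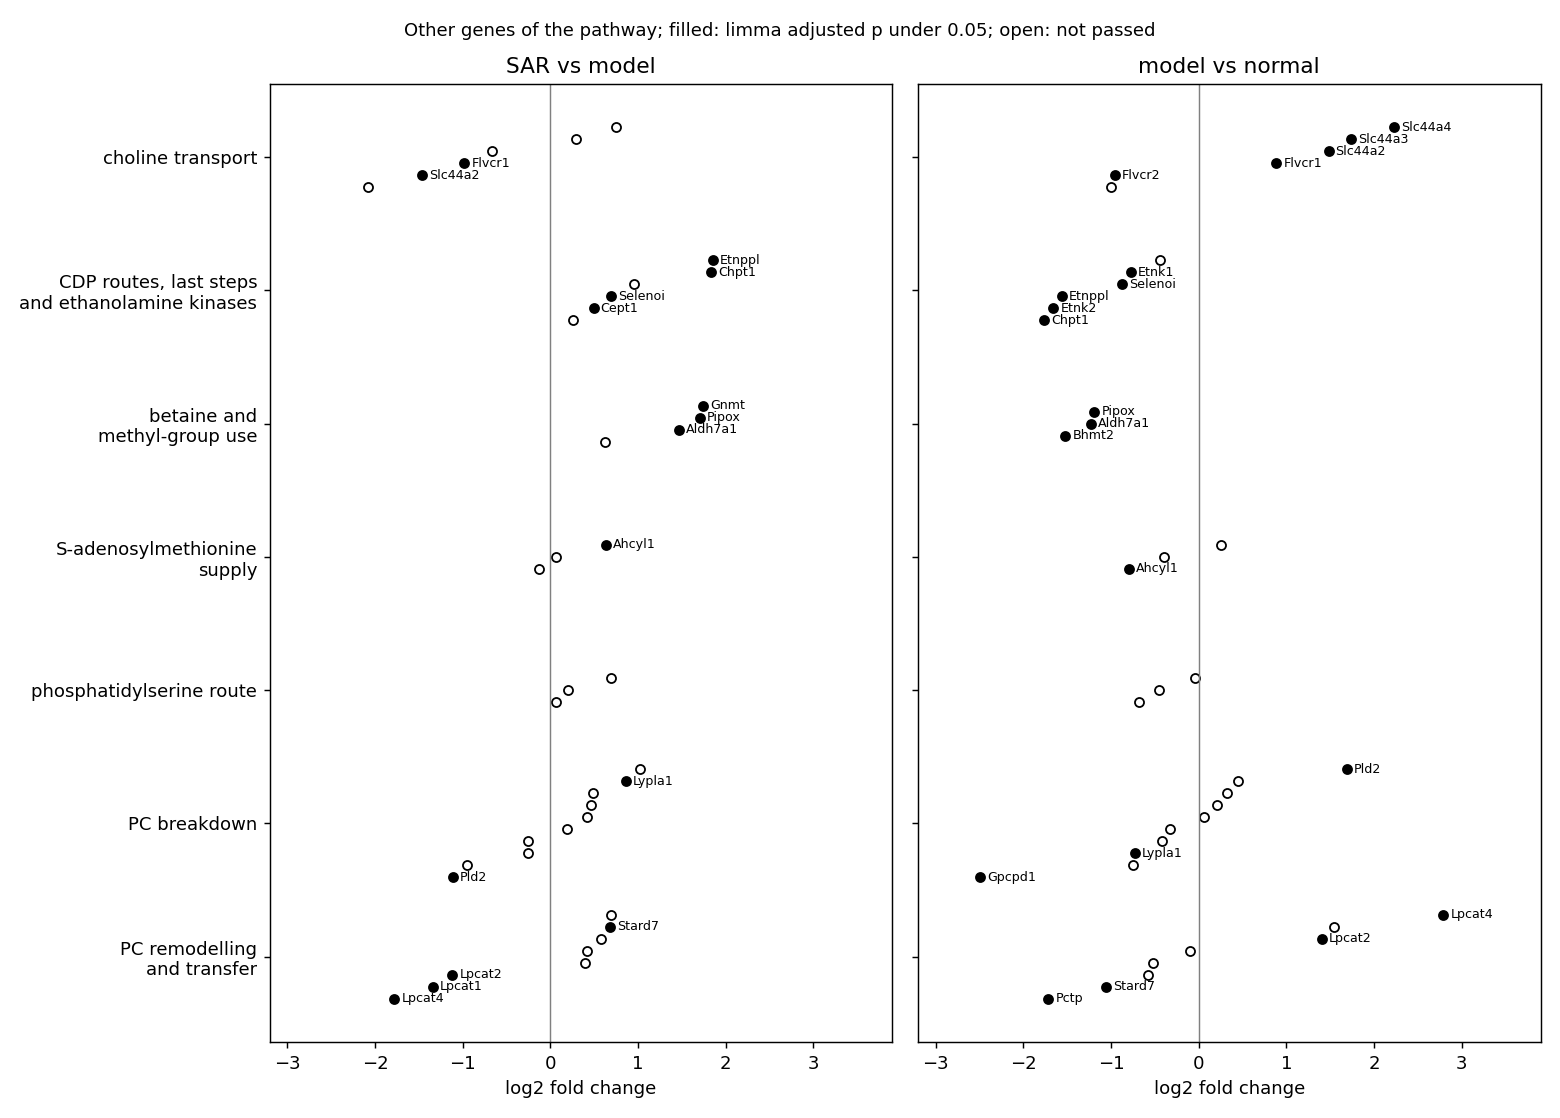
Log2 fold changes (x axis, limma) of the other genes of the routes by list (y axis; order within a list by value), in SAR against model and model against normal livers; both panels use the same model libraries. Filled and named points passed the threshold, among them Chpt1 at 1.83 and -1.77 and Slc44a2 at -1.46 and 1.48.

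Marker genes of other liver cells differed between these groups as well. In SAR against model livers, where Sardh and Dmgdh were higher, the authors' deposited table lists 7 of 7 hepatocyte markers as higher with a DESeq adjusted p under 0.05, at folds of 1.69 (Apoa1) to 3.74 (Cyp2e1), with Alb at 1.79 (adjusted p = 0.00390). For model against normal the authors' DESeq test lists Alb at a fold of 0.877 (adjusted p = 0.862) and Ttr at 0.806 (adjusted p = 0.558). The other hepatocyte markers were called lower there: Apoa1 at 0.637 (adjusted p = 0.0362), Serpina1a at 0.599 (adjusted p = 0.0153), Cyp2e1 at 0.288 (adjusted p = 0.00210), Tat at 0.224 (adjusted p = 3.52e-04) and Hnf4a at 0.392 (adjusted p = 2.00e-06). Hnf4a was also lower by limma (log2 fold change -1.36). Cyp2e1 had 14472, 13805 and 120668 normalised reads in model libraries a, b and c, and without library c its folds became 13.1 for SAR against model and 0.0817 for model against normal. Summed markers of cholangiocytes came to 763 to 1693 normalised reads in SAR, 1988 to 10823 in model and 466 to 842 in normal libraries, and 5 of 5 were higher in model than in normal livers. Spp1 made up most of this sum in every library, with 8449, 9607 and 1785 normalised reads in model libraries a, b and c. Macrophage markers summed to 1507 to 1994 in SAR, 5191 to 6705 in model and 1004 to 1417 in normal libraries (4 of 5 higher in model), and stellate and fibroblast markers to 2941 to 5331 in SAR, 8723 to 20367 in model and 883 to 3369 in normal libraries (5 of 5 higher in model). Like Chka, the sums of cholangiocyte markers (9505, 10823 and 1988 in model libraries a, b and c), stellate and fibroblast markers (20367, 17625 and 8723) and T-cell markers (338, 265 and 183) were lowest in model library c. The sums of macrophage (6377, 5191 and 6705), neutrophil (711, 1062 and 2304) and endothelial markers (856, 905 and 1223) were instead highest there. Within the stellate and fibroblast list Dcn was also highest in model library c (5678, 4473 and 5868). T-cell markers summed to at most 338 and endothelial markers to 693 to 1390 in SAR, 856 to 1223 in model and 1236 to 2615 in normal libraries. Neutrophil markers reached 5864 in normal library c against 62.0 and 171 in a and b. The part of these cell types in the results was not tested.

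For 3 genes, those whose centred log2 values over the 9 libraries were most alike were sought among 8220 genes with a mean of at least 100. The profile of Chdh was nearest to those of Eif3l, Zdhhc5 and Cul4a, with root mean square differences of 0.07 to 0.08 log2 units. Pemt was nearest to Erg28, Tst and Dnajc25 at 0.17, and Chka to 4930503L19Rik, Col4a2 and Cyth3 at 0.37 to 0.40. These differences are not scaled to how much a gene varies over the libraries. They therefore do not rank the likeness found for the 3 genes.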

How the data were processed

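Total RNA of 9 mouse liver samples was sequenced from NEBNext Ultra libraries, per the labels' protocols, and read against build mm9, per the submitters' processing notes. Which aligner, counter, strand setting and annotation served is not given in the sources used here. The 2 deposited tables hold, per the file headers, the DESeq group means (a signal, the mean of read counts divided by size factors), the fold as a ratio of 2 means, its log2 value, and p-values with their adjusted values from the authors' DESeq test. No table gives values per sample.

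Reads per library were recovered: a mean with 15 digits is a sum of 3 whole read numbers, each times a constant of its library. Among means up to 5000, a single solution was found for 14756 of 14756 SAR means and 14802 of 14802 normal means. Model means are in both tables: 16057 of 16057 tried were solved from them together, and solving the tables separately gave the same reads in 15812 of 15812 cases. Of means from 5000 to 100000, which include Sardh in SAR and normal livers, 274 of 324 were solved for SAR and 274 of 373 for normal. With means moved by a relative 1e-12, 0 of 2000 were solved. On simulated data 2685 of 2685 were solved rightly. Recovered reads made up 53.0% of the summed means of the SAR, 100% of the model and 47.6% of the normal group, since the most abundant genes of SAR and normal livers were not split; 16395 of 16521 genes were recovered in all libraries.

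Size factors recomputed from these reads differed from the deposited ones by at most 0.336%. SAR and normal stand in different tables and were put on 1 scale by medians of ratios. limma 3.58.1 (R 4.3.3, trended variance, two-sided) was run on log2(value + 1) where a gene averaged 10 or more over the 6 libraries, and Benjamini-Hochberg adjusted p-values cover every gene tested; such folds understate changes of genes with few reads. An exact permutation test of 3 against 3 cannot go below 0.1 and was not run. Intervals of read ratios cover counting error only. The alternatives were other scalings, pseudocounts, filters, limma without a trend, voom, the authors' test, 1 fit over the 9 libraries and leaving out each library. Named genes were all 10 genes, listed genes past the threshold, and Chpt1, Cept1, Gnmt, Bhmt, Aldh7a1, Abcb4, Mat1a and Etnk2. The genes and lists were chosen with earlier results of these data known. Of 16521 gene IDs 16490 had a symbol. Exon lengths and overlaps come from GENCODE M21 (GRCm38), not the authors' annotation, and 9 of 10 genes had an entry in the RefSeq promoter table.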

Additional observations from a re-analysis of the deposited data

How the results depend on the processing

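No paired analysis was possible because the recovered libraries carry no replicate number. Genes called numbered 3662 in SAR against model livers and 1541 to 5158 with 1 library left out; 4902 in model against normal livers and 2435 to 5774; and 410 in SAR against normal livers and 6 (without SAR library a) to 1080 (without normal library c), or 29 by limma without a trend. Scaling to equal totals of recovered reads moved the median of all genes to -0.37 in SAR against model and 0.41 in model against normal livers, beside 0.01 and 0.03, and the higher share of calls to 16.9% and 78.5%, beside 45.0% and 51.2%. Under it, Slc44a1 turned to -0.14 in SAR against model and 0.19 in model against normal livers, Pcyt2 turned to 0.15 in model against normal livers, and the calls of Dmgdh in SAR against model (0.51, adjusted p = 0.107) and Chdh in model against normal livers (-0.39, adjusted p = 0.0838) were lost. Without a trend Dmgdh (adjusted p = 0.0738) and Chka (adjusted p = 0.0508) lost the same calls as named above. In SAR against normal livers, leaving out 1 library gave Sardh values from -0.32 to 0.080, above 0 without SAR library a, and Slc44a1 values from -0.040 to 0.16, below 0 without SAR library a or b. Of 388 alternative values, for 25 results of the genes tested (none for Chkb, and Pcyt1b only in SAR against model livers), 358 kept direction and side of the threshold, 19 lost and 5 gained a call and 6 changed sign; the cause was not tested. For 0 of 8 genes called in SAR against normal livers, 2 had an unadjusted p under 0.05 and voom also called 0. Sardh kept both calls in every alternative run.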
